A study of Mus musculus with 10 samples.

Results

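The genes of the lipid droplet coat and of droplet assembly were followed in the jejunum of mice after a high-fat meal. They were taken by name as the perilipins Plin1 to Plin5, the CIDE genes Cidea, Cideb and Cidec, and the FIT genes Fitm1 and Fitm2, 10 genes in all. A value was obtained for 9 of them, among 22180 genes tested. Cideb had none, because its probe set also carries the symbol of Nop9, its neighbour on chromosome 14, and the 2 cannot be told apart there.

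A lipid droplet is a core of triglyceride and sterol ester under a single layer of phospholipid, mostly phosphatidylcholine. Perilipins sit on that layer and control access of lipases, CIDE proteins pass lipid from one droplet to another so that droplets grow, and FIT proteins act in the endoplasmic reticulum, where droplets form. In enterocytes, fat absorbed from a meal is held for a time in cytoplasmic droplets and is otherwise packed into chylomicrons. Pcyt1a encodes the enzyme CCT-alpha, which makes CDP-choline, the precursor of phosphatidylcholine, and is known to bind growing droplets.

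The knockout group had the genotype Pcyt1aLoxP/LoxP;VilCreERT2, a floxed Pcyt1a with a tamoxifen-activated Cre driven by the villin promoter, which works in gut epithelial cells and not in the rest of the wall. The control group was Pcyt1aLoxP/LoxP without Cre. All mice were females aged 10 to 12 weeks, had tamoxifen for 5 days, ate a high-fat diet for 3 days, fasted overnight and were fed the same diet again for 2 hours before 3 cm of mid small intestine was taken. Each group has 5 arrays, and since only knockout mice carried Cre, an effect of Cre itself and loss of Pcyt1a cannot be told apart. The labels do not say that each array is a separate mouse, so the p-values rest on the spread between these samples, and part of that spread may be technical.

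Values are log2 intensities of Affymetrix arrays, so a difference of 1 is 2-fold. Array medians lay between 45.8 and 48.1 on the linear scale. Pcyt1a stood at 7.24 to 7.66 in knockout and at 8.95 to 9.51 in control arrays, a difference of -1.71 (SE 0.11, limma adjusted p = 6.51e-05, two-sided exact permutation p = 0.00794, the smallest that 5 arrays against 5 can give). The enterocyte genes Vil1 (12.4 ± 0.10 in knockout, 12.4 ± 0.09 in control, SD, n = 5) and Sis, sucrase-isomaltase (13.3 ± 0.03 and 13.3 ± 0.06, SD, n = 5), were bright in every array. Knockout 1 stood apart from the other knockouts in several, though not all, markers of the distal small intestine. Fabp6, the ileal bile acid binding protein, was at 4.31 in knockout 1, at 8.59 to 11.2 in knockouts 2 to 5 and at 4.36 to 5.38 in controls. For that reason results that rest on knockout 1 are given with and without it.

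None of the 9 measured genes passed the test over all genes (limma, Benjamini-Hochberg, adjusted p under 0.05), against 76 of 22180 genes in all (0.343%). At an unadjusted p under 0.05 there were 2 of the 9, Plin2 and Cidec, against 12.1% of all genes, or 6.25% counting only lower values. The knockout and control arrays overlapped in each of the 9, while they did not overlap in 2.77% of all genes. Values were lower in knockout for 7 of the 9 and higher for 2, Cidea and Fitm1, with a median difference of -0.14 beside a median of -3.54e-04 over all genes. Cidec and Plin2 had the deepest differences among the 9, at 57.3% and 59.6% of the control level, followed by Fitm2 at 79.6%. The tissue is whole gut wall, in which fewer cells of a type and less RNA per cell cannot be told apart.

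**Figure D1:**
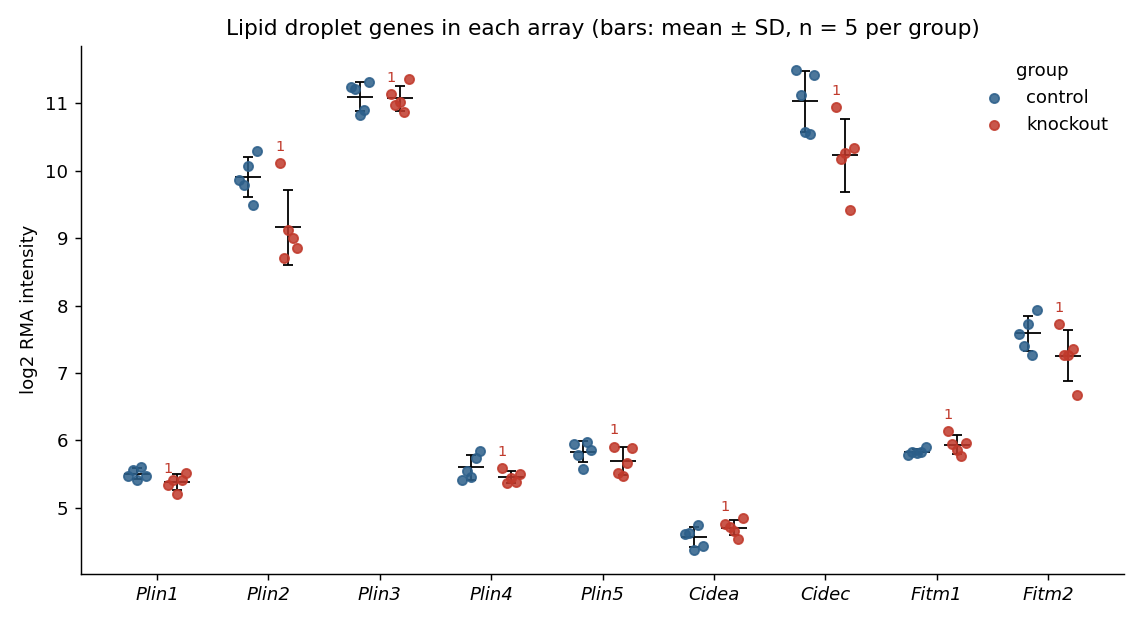
Log2 RMA intensity of the 9 measured genes in each array, with control arrays in blue, knockout arrays in red and the mean ± SD of each group (n = 5) in black; a red 1 marks knockout 1. The probe sets of Plin2, Plin3 and Cidec are the brightest, and the knockout 1 point of Plin2, at 10.12, lies among the controls while the other knockouts lie below them.

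Plin2, the perilipin found on droplets of most tissues and stabilised by the droplet itself, read 10.12, 8.71, 9.12, 9.00 and 8.85 in knockouts 1 to 5. In controls 1 to 5 it read 9.87, 9.79, 10.07, 9.50 and 10.30. Knockouts 2 to 5 all lay below the lowest control, and knockout 1 lay above 4 of the 5 controls. The group means were 9.16 ± 0.56 and 9.90 ± 0.30 (SD, n = 5), a difference of -0.75 (SE 0.24, 95% confidence interval -1.26 to -0.23). This corresponds to 1.68-fold lower values (1.17 to 2.40), with an unadjusted p of 0.00842 and an adjusted p of 0.233 in limma. Without knockout 1 the difference was -0.99 (SE 0.15) and passed the test (limma adjusted p = 0.0132), in a fit where 268 genes (1.21%) passed. Plin2 was then the single member called, and no other omission of 1 array gave a member that passed.

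The stretch before the start of Plin2 is shown beside those of Plin3 and Cidec, the other bright members, so that the regions next to genes with unlike differences can be read together. Each runs from 250 bases before to 20 bases after the annotated start, 5′ to 3′ on the strand of the gene, from RefSeq on GRCm38.p6: chr4:86670040-86670309 for Plin2, chr17:56290492-56290761 for Plin3 and chr6:113435741-113436010 for the first of 2 starts of Cidec, all on the minus strand. Capitals mark 4 short motifs on either strand: CACGTG, an E-box; AGGTCA, a nuclear receptor half-site; GGGCGG, a GC box; and CCAAT.
Plin2: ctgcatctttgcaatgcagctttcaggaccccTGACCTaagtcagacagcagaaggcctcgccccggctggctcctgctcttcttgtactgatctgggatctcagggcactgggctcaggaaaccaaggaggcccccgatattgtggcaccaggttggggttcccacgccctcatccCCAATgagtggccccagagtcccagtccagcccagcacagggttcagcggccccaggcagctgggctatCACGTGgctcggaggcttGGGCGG
Plin3: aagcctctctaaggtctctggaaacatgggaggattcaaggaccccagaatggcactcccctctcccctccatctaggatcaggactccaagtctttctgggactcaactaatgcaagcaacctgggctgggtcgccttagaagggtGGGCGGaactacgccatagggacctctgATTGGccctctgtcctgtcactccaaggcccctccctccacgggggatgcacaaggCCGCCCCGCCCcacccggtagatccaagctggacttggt
Cidec: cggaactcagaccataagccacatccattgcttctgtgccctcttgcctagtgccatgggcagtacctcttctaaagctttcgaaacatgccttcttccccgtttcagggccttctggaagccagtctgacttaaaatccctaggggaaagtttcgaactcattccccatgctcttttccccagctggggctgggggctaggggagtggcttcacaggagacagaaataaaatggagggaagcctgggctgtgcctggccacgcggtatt

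In the Plin2 window, AGGTCA began 218 bases before the start on the reverse strand, CCAAT began 73 before it, CACGTG spanned the start and GGGCGG lay just after it. Plin3 had 3 matches to GGGCGG, of which 2 overlap, and 1 to CCAAT. Neither start of Cidec had any of the 4. Among 32851 windows of the same length in the table, CACGTG was present in 6.57%, AGGTCA in 15.0%, GGGCGG in 34.1% and CCAAT in 35.4%. A match describes letters only, and its absence says nothing about a factor. Windows were found for 9 of the 10 genes, and AGGTCA occurred among them in Plin2 and at both starts of Plin5.

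Plin3, also called TIP47, is a perilipin that moves from the cytosol onto young droplets. Its values were 11.14, 10.98, 11.02, 10.88 and 11.36 in knockouts 1 to 5 and 11.24, 11.22, 10.82, 10.91 and 11.31 in controls 1 to 5. The 2 groups covered nearly the same range, and the difference was -0.02 (SE 0.12, interval -0.29 to 0.24, limma adjusted p = 0.965). Its sign changed with quantile normalization and with several single arrays left out, so no direction can be given. The interval allows a level between 81.8% and 118% of control. The change of Plin2 against that of Plin3 was tested within arrays. The log2 difference Plin2 minus Plin3 was -1.92 ± 0.57 in knockout and -1.19 ± 0.30 in control (SD, n = 5), a shift of -0.72 (SE 0.29, two-sided exact permutation p = 0.0317, adjusted p = 0.0476 over the 2 pairs tested). The ranges overlapped, at -2.51 to -1.02 in knockout and -1.42 to -0.75 in control. With single arrays left out the shift ran from -0.57 to -0.95, and the adjusted p ran from 0.0159 without knockout 1 to 0.103 without control 1, 3 or 5, and 9 of the 10 omissions ended the call.

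The 3 other perilipins were much dimmer than Plin2 and Plin3. As a guide to dim values, 95% of 1088 olfactory receptor genes had a mean of at most 5.41 on these arrays, although probe sets differ in brightness for the same amount of RNA. The means of Plin1 (5.44), Plin4 (5.53) and Plin5 (5.76) lay above that value, by little for Plin1 and Plin4. They were higher than in 95%, 95.3% and 97.2% of olfactory receptor genes, so little can be said of the levels of Plin1 and Plin4. Plin1, which guards the droplets of adipocytes, read 5.34, 5.42, 5.21, 5.41 and 5.52 in knockout and 5.47, 5.56, 5.41, 5.61 and 5.48 in control. Its difference was -0.13 (SE 0.08). Plin4, a perilipin of adipocytes and muscle, read 5.59, 5.37, 5.45, 5.38 and 5.50 in knockout and 5.42, 5.54, 5.45, 5.74 and 5.84 in control, a difference of -0.14 (SE 0.10). Plin5, which links droplets with mitochondria in tissues that burn fat, read 5.91, 5.52, 5.47, 5.67 and 5.89 in knockout and 5.94, 5.79, 5.58, 5.98 and 5.86 in control, a difference of -0.14 (SE 0.11). The groups overlapped in all 3, and limma's adjusted p was 0.583, 0.622 and 0.694. Plin4 and Plin5 are next to each other on chromosome 17.

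Cidec, also called Fsp27, promotes the growth of large droplets. It read 10.94, 10.18, 10.26, 9.42 and 10.33 in knockouts 1 to 5 and 11.49, 11.12, 10.57, 10.54 and 11.42 in controls 1 to 5. Knockouts 2 to 5 lay below every control here too, and knockout 1 lay above controls 3 and 4. The means were 10.23 ± 0.54 in knockout and 11.03 ± 0.45 in control (SD, n = 5), a difference of -0.80 (SE 0.26, interval -1.38 to -0.23, unadjusted p = 0.00977, limma adjusted p = 0.247). On the linear scale this is 1.75-fold lower (1.17 to 2.59). Without knockout 1 the difference was -0.98 (SE 0.24) and still did not pass (limma adjusted p = 0.0845). Without knockout 4, the lowest array, it was -0.60 (SE 0.23, limma adjusted p = 0.426).

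Cidea, the CIDE gene of brown fat, was dim. It read 4.77, 4.71, 4.66, 4.54 and 4.85 in knockout and 4.61, 4.63, 4.38, 4.74 and 4.44 in control, with a difference of 0.14 (SE 0.09, limma adjusted p = 0.593). That mean of 4.63 over all arrays was higher than in 84.2% of olfactory receptor genes, so little can be said of its level. The planned comparison of Cidec with Cideb, the CIDE gene that acts in lipoprotein loading, could not be made.

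Fitm2, the FIT gene expressed in most tissues, is needed for normal budding of droplets from the endoplasmic reticulum. It read 7.72, 7.26, 7.26, 7.35 and 6.68 in knockouts 1 to 5 and 7.58, 7.41, 7.73, 7.27 and 7.94 in controls 1 to 5. Knockouts 2, 3 and 5 lay below every control, by little for the first pair. The difference was -0.33 (SE 0.18, interval -0.72 to 0.06, limma adjusted p = 0.505). It was -0.18 (SE 0.15) without knockout 5. Fitm1, known mainly from striated muscle, read 6.14, 5.95, 5.85, 5.77 and 5.96 in knockout and 5.79, 5.83, 5.81, 5.83 and 5.89 in control. Its difference was 0.10 (SE 0.08, limma adjusted p = 0.688), and a second probe set of the gene showed 0.03. Fitm1 was dim, with a mean of 5.88 that was higher than in 97.8% of olfactory receptor genes. Within arrays, Fitm1 minus Fitm2 shifted by 0.43 between the groups (SE 0.19, two-sided exact permutation p = 0.0476, adjusted p = 0.0476). With the mean of both Fitm1 probe sets the shift was 0.39 and did not pass (exact permutation, adjusted p = 0.127). Of 10 omissions of 1 array, 9 also ended the call, so it is a weak one.

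**Figure D2:**
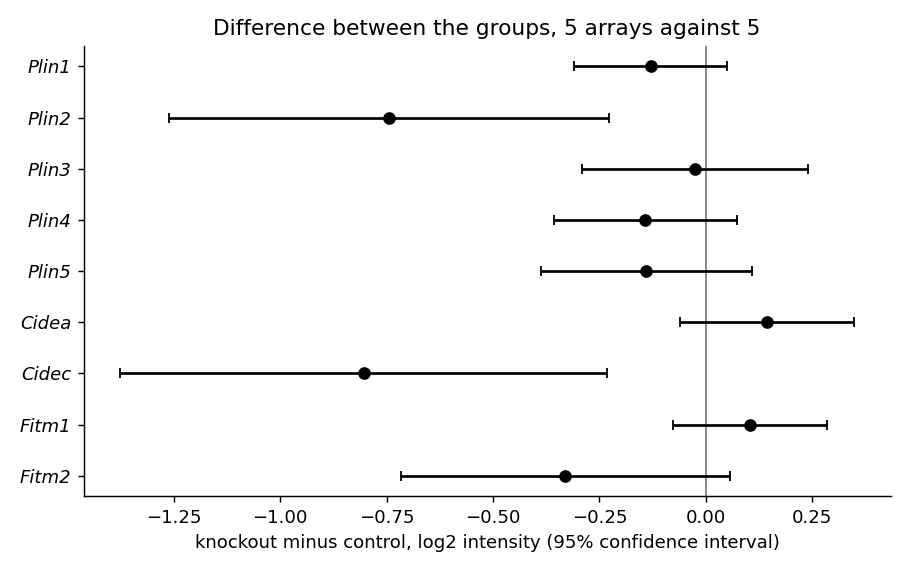
Difference between the groups (knockout minus control, log2 intensity) for the 9 measured genes, with limma's 95% confidence interval from 5 arrays in each group. The intervals of Plin2 (-1.26 to -0.23) and Cidec (-1.38 to -0.23) lie below 0, without adjustment for the number of genes tested, and the other 7 include 0.

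**Figure D3:**
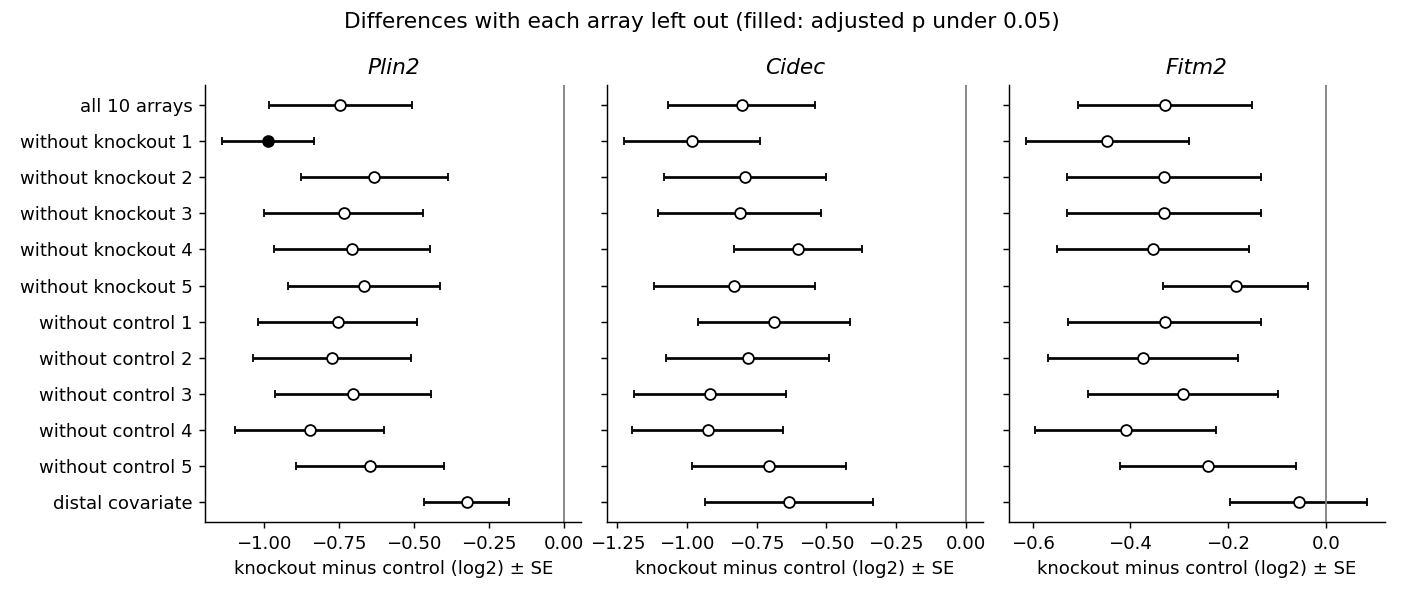
Difference between the groups ± SE (log2 intensity) for Plin2, Cidec and Fitm2 with all 10 arrays, with each array left out in turn, and with the mean of the distal intestine list as a covariate. The single filled point, which passed at an adjusted p under 0.05, is Plin2 without knockout 1; with the covariate Plin2 was at -0.32 and Fitm2 at -0.06.

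The arrays differed in markers of position along the gut, and Plin2 varied with them. Beside this list and those below, 12.1% of all genes had an unadjusted p under 0.05 (limma). Of all genes 0.343% passed and 50.1% had lower values in knockout. Of the 11 measured genes of a distal intestine list, 8 had higher and 3 lower values in knockout. None passed (7 at an unadjusted p under 0.05, limma). Among the 3 lower were Cubn (-0.84, SE 0.19) and Nt5e (-1.58, SE 0.50), both of them counted in those 7. In these 2 genes knockout 1, at 11.12 and 7.82, read close to knockout 4, at 11.11 and 8.08. The list mean, as the deviation from each gene's mean over the 10 arrays, was -0.86 in knockout 1, 0.23 to 0.86 in knockouts 2 to 5 and -0.57 to 0.20 in controls. In the proximal intestine list 8 of 12 genes were lower and 1 was called, S100g, the calcium-binding protein calbindin-D9k (-1.79, SE 0.33, limma adjusted p = 0.0469). It passed in only 1 of the 10 fits with 1 array left out, the one without knockout 1. With group means removed, Pearson's r between Plin2 and the distal list mean was -0.90 over the 10 arrays (Spearman's rho -0.75), and -0.65 over the 9 arrays without knockout 1. With the proximal list mean r was 0.83 (rho 0.61), and 0.51 over the 9 arrays without knockout 1. It was 0.21 without knockout 1 and control 5, so that this relation rested largely on those 2 arrays together. Values of r without 2 arrays, here and below, kept the deviations from the means of all 5 arrays of a group. For the 9 arrays the knockout mean was taken anew. For Fitm2 the r with the distal list mean was -0.81 (rho -0.85) and -0.75. For Cidec it was -0.33 (rho -0.13) and 0.35. These are descriptions over arrays that share their normalization. They and the list relations given below were selected from those of the 9 measured members with 13 lists. Among so many pairs some high values of r turn up readily. One left out was Cidea, a dim gene, with the list of striated and smooth muscle (r of 0.88).

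With the distal list mean as a covariate, the difference in Plin2 was -0.32 (SE 0.14, limma adjusted p = 0.484), and that in Fitm2 was -0.06 (SE 0.14, adjusted p = 0.931). Cidec stood at -0.63 (SE 0.30, limma adjusted p = 0.521) in that fit. The distal list mean itself differed by 0.55 between the groups and comes from the same arrays. The fit therefore cannot tell position along the gut from an effect of the knockout on these markers, and the cause was not tested.

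**Figure D4:**
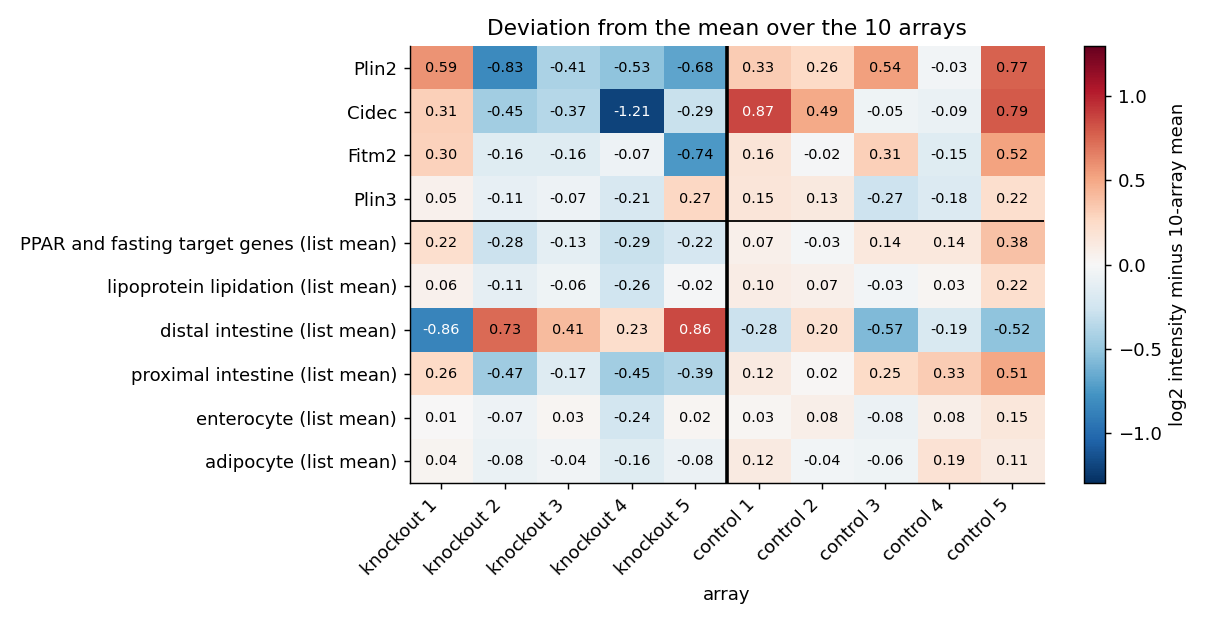
Deviation of each array (columns, knockouts left of the line and controls right of it) from the mean over the 10 arrays, in log2 intensity, for 4 members above the line and the means of 6 gene lists below it. Knockout 1 is at 0.59 for Plin2 and -0.86 for the distal intestine list, while knockouts 2 to 5 are at -0.83 to -0.41 and 0.23 to 0.86.

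Markers of other cell types were read beside the members that such cells express. Of 15 adipocyte genes 13 were measured, 9 lower and 4 higher, with none called (2 at an unadjusted p under 0.05, limma). The list also holds genes that enterocytes use, such as Pck1 and Gpd1. The list mean lay between -0.16 and 0.04 in knockout arrays and between -0.06 and 0.19 in control arrays. Adipoq, which encodes adiponectin, was at 3.81 ± 0.23 and 4.12 ± 0.20, and Lep, which encodes leptin, at 4.66 ± 0.13 and 4.46 ± 0.34 in knockout and control (SD, n = 5), both within the range of olfactory receptor genes. Fabp4, the fatty acid binding protein of adipocytes that endothelium and macrophages also express, was above 99.8% of olfactory receptor genes, at 6.99 ± 0.50 and 6.96 ± 0.27 (SD, n = 5). Cfd had no value. In the muscle list, 9 of 15 genes were lower and none was called (1 at an unadjusted p under 0.05, limma), with Myh11, smooth muscle myosin, at 6.94 to 9.14 and Ckm, muscle creatine kinase, at 5.07 to 5.70 over the arrays. Enterocyte genes were lower in 7 of 11 cases with none called (1 at an unadjusted p under 0.05, limma). That gene was Lct, which is also in the proximal list, at -0.72 (SE 0.15, limma adjusted p = 0.0640). It read 11.4 to 12.2 in knockout and 12.4 to 12.8 in control arrays. Macrophage genes (12 measured) and those of endothelium and lymphatics (9 measured) had none called either, with 1 each at an unadjusted p under 0.05 in limma, and the part of these cells in the members' values was not tested. Crypt and proliferation genes were higher in 10 of 13 cases with none called (7 at an unadjusted p under 0.05, limma). Among those 7, Lgr5 was lower, at -0.61 (SE 0.27), and the others were higher.

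Genes that free fat from droplets, or regulate that step in either direction, stood mostly lower in knockout. Of 12 measured, 9 were lower and 3 higher, with a median of -0.18. At an unadjusted p under 0.05 (limma) there were 4, against 12.1% of all genes, and after adjustment 1 passed, against 0.343%. That gene was Ces1d, a carboxylesterase with triglyceride hydrolase activity, which read 4.21 to 4.82 in knockout and 5.21 to 6.00 in control (-1.21, SE 0.17, limma adjusted p = 0.0185; 7 of the 10 fits with 1 array left out called it). Lipa, the lysosomal acid lipase, was at -0.84 (SE 0.20, adjusted p = 0.0989), Abhd5, the co-activator of adipose triglyceride lipase that Plin1 and Plin5 bind, at -0.47 (SE 0.17) and Ces1g at -0.83 (SE 0.33). None of these 3 passed, though Lipa did without knockout 1 (-1.02, limma adjusted p = 0.0103), in 1 of the 10 omissions of 1 array. Ces1d and Ces1g belong to a cluster of closely similar genes, whose signals could mix on these probes.

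Of 24 measured genes of droplet growth and contacts, 13 were lower and 11 higher, none passed (4 at an unadjusted p under 0.05, limma), and the median was -0.02. Dgat2, which makes triglyceride at the droplet, was at -0.98 (SE 0.28, limma adjusted p = 0.173). It read 12.3 in knockout 1, 10.7 to 11.0 in knockouts 2 to 5 and 11.8 to 12.8 in controls, so that it shared the position of knockout 1 with Plin2. Without knockout 1 it passed (-1.27, limma adjusted p = 0.00778), the only 1 of the 10 omissions of 1 array that called it. Vps13a, a lipid transfer protein of organelle contacts, was at -0.37 (SE 0.10), Gpat4, a glycerol phosphate acyltransferase, at 0.25 (SE 0.08) and Rab3gap2, part of the exchange factor for the droplet GTPase Rab18, at -0.23 (SE 0.08), none past the test.

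Among 22 other proteins that bind droplets, 13 stood higher and 9 lower, and the median was 0.03. At an unadjusted p under 0.05 (limma) there were 7, and after adjustment 1 passed. It was Nsdhl, a sterol dehydrogenase that resides on droplets and in the endoplasmic reticulum, at 0.67 (SE 0.12, limma adjusted p = 0.0469). All 5 knockout arrays lay above all controls, at 8.81 to 9.32 against 8.27 to 8.75, and of the 10 fits with 1 array left out only that without knockout 1 called it (0.76, limma adjusted p = 0.0101). The squalene epoxidase gene Sqle was at 1.21 (SE 0.27, limma adjusted p = 0.0874). It too passed in 1 of the 10 omissions, that of knockout 1 (1.45, limma adjusted p = 0.0103). Not past the test were Hsd17b11, a droplet dehydrogenase, at -0.47 (SE 0.14) and Mettl7b at -0.36 (SE 0.13).

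Lipoprotein lipidation genes were lower in 16 of 17 cases, none passed (3 at an unadjusted p under 0.05, limma), and the median was -0.08. Mia2, a cargo export protein of endoplasmic reticulum exit sites, was at -0.58 (SE 0.15). It passed without knockout 1 (-0.71, limma adjusted p = 0.0270), the only 1 of the 10 omissions of 1 array that called it. Among the others, Apoc3 was at -0.70 (SE 0.19), Apobec1, the editing enzyme of Apob mRNA, at -0.43 (SE 0.16) and Apoa4 at -0.16 (SE 0.08). With group means removed, Cidec followed the mean of this list closely, with r of 0.91 over the 10 arrays (rho 0.92) and 0.88 without the 2 arrays farthest out in the list, control 5 and knockout 4. This pair, too, was selected from all those of members and lists.

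Of 22 measured PPAR and fasting target genes, a group to which Plin2 and Cidec are also assigned in the field, 15 were lower and 7 higher, none passed (6 at an unadjusted p under 0.05, limma), and the median was -0.13. Cd36, a fatty acid transporter, was at -1.85 (SE 0.39, limma adjusted p = 0.0709), and read 9.84 in knockout 1, 7.40 to 8.46 in knockouts 2 to 5 and 9.71 to 10.5 in controls. Pdk4, a kinase that spares glucose in fasting, was at -1.55 (SE 0.42), Slc25a20, the carnitine carrier, at -0.40 (SE 0.10) and Acaa1b, a peroxisomal thiolase, at -0.66 (SE 0.25). Without knockout 1, Cd36 (-2.26, adjusted p = 0.00217) and Pdk4 (-1.94, adjusted p = 0.0116) passed in limma. For both this was the only 1 of the 10 omissions of 1 array that called the gene. Plin2 had an r of 0.87 with the list mean over the 10 arrays (rho 0.62), and of 0.63 over the 9 arrays without knockout 1. Without knockout 1 and control 5 the r was 0.29, so that relation rested largely on those arrays together.

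**Figure D5:**
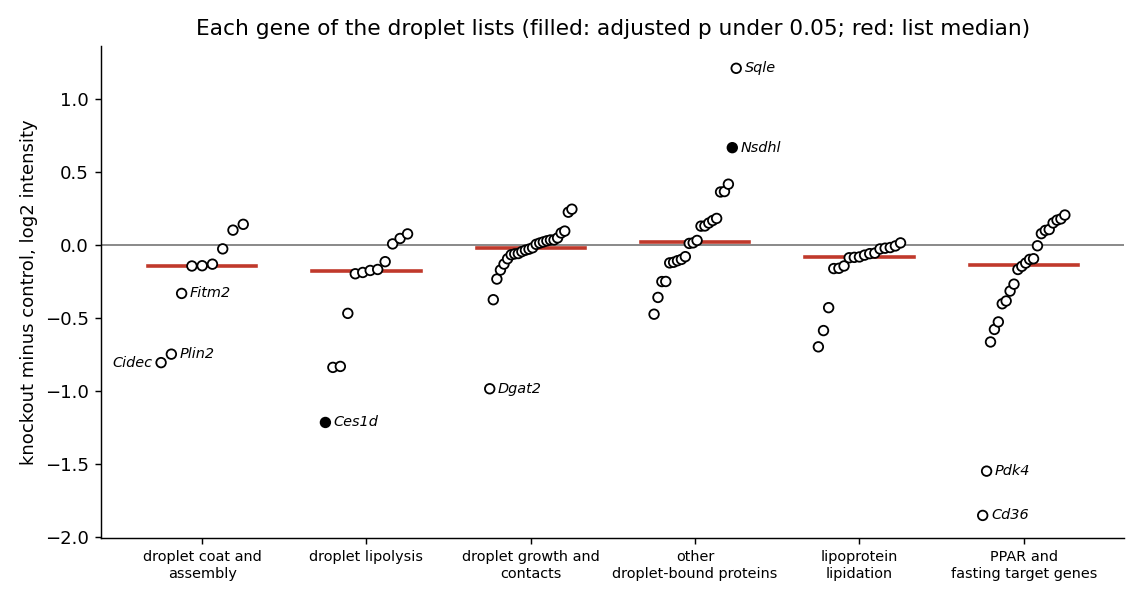
Knockout minus control in log2 intensity for every measured gene (circles) of the droplet coat and assembly set and of 5 lists around it, with the median of each as a red bar and genes past an adjusted p of 0.05 filled. Ces1d and Nsdhl are the 2 filled genes, and Cd36, at -1.85, has the deepest value.

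Among the members, Plin2 and Fitm2 varied together within groups (r of 0.79 over 10 arrays, rho 0.72, and 0.55 without knockout 1 and control 5), as did Plin3 and Cidec (r of 0.76, rho 0.79, and 0.84 without control 3 and knockout 5). Plin2 and Cidec, the members with the deepest differences, had an r of 0.58 (rho 0.60), which was 0.04 without knockout 1 and control 5. Over all genes, those with the pattern most like Plin2 once group means were removed were Tpi1, a glycolytic enzyme (r of 0.97), Slc16a6 (0.95), Sel1l2 (0.94), Slc19a1, the reduced folate carrier (0.94), and a numbered transcript. For Cidec they were a numbered transcript (0.99), then Sec24a, a COPII coat subunit (0.98), the channel gene Aqp3 (0.98), Ccdc120 (0.97) and the adaptor Gab1 (0.96). With 10 arrays and 22180 genes, high values of r turn up readily, and none of these 8 named genes passed the test between groups. Tpi1 differed by 0.03 (SE 0.09) and Sec24a by -0.50 (SE 0.11, limma adjusted p = 0.0885).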

How the data were processed

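The 10 jejunum samples were hybridised to Affymetrix arrays, 1 each, starting from 400 ng of total RNA per the labels. Per the submitters' processing notes, the authors used Affymetrix Expression Console 1.4.1.46 with RMA, which corrects background, gives arrays one distribution and summarises probes; the sources used here give no other settings. What was deposited are linear intensities, of which log2 was taken. A shift shared by most genes would not show after RMA. The number of arrays limits the precision, and detection calls were not used.

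Of 41345 probe sets, 23521 carry 1 symbol in the platform annotation, and 1814 with several and 16010 with none were left out. A gene was represented by its brightest probe set on average. Groups and replicate numbers came from the titles. Limma 3.58.1 in R 4.3.3 (lmFit and eBayes, group only) was fitted over 22180 genes with Benjamini-Hochberg adjustment, and checked on simulated data. Pairs of members were compared within arrays by exact permutation. The distal covariate and the joint omission of knockout 1 and control 5 were added after seeing the data. The members and lists were chosen with earlier results of these data known. Named by rule were all members, Pcyt1a, and called genes and up to 4 genes by p in the lists around droplets. So were called genes and preset defining markers of the cell type and position lists, and the 5 genes most like Plin2 and Cidec. A few more genes of the cell type and position lists were named where they qualify a list. Numbered models are not named. Promoters are RefSeq's (GRCm38.p6). The labels do not say whether same-numbered samples of the 2 groups belong together, and the main fit did not pair them.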

Additional observations from a re-analysis of the deposited data

Results flagged for a closer look

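For the genes named by rule, 92 groups were examined for an array far from the other 4 of its group. The limit was a gap to the nearest array over 0.71 of the group's range, and 10 groups had such an array. The 8 genes named for their likeness to Plin2 or Cidec were picked for their pattern over these arrays, so that no rate is read from them. Without them there were 6 of 76 groups, where chance gives about 1 in 20 for unselected genes, and knockout 1 was the array set apart in 3 of the 6. Many of the remaining genes were named for a small p in these data, and all share the same arrays. No excess can therefore be read from that count. It was high for Dgat2 (12.3, next array 11.0) and Acaa1b (7.60, next 6.97) and low for Nsdhl (8.81, next 9.20). It was also high for the 4 genes most like Plin2, which the choice of these genes favours, with Tpi1 at 11.7 (next 11.4), Slc16a6 at 10.2 (next 8.83), Sel1l2 at 4.21 (next 3.87) and Slc19a1 at 6.91 (next 6.19). Control 5 was high for Ces1g (8.35, next 6.67) and Pdk4 (10.1, next 9.76), and control 4 for Myh11 (9.14, next 7.22). No member was among the 10, though Plin2 in knockout 1 (10.12, next 9.12) fell just short of the limit.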

How the results depend on the processing

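The number of members called was 0 in the main fit and in 19 of 21 alternatives. It was 1, Plin2, without knockout 1 and without knockout 1 and control 5 together (-0.89, SE 0.14, limma adjusted p = 0.0190), and with single arrays left out it ran from 0 to 1. All genes called were 76, and 142 with array weights, 27 with the replicate block, 23 with the distal covariate, 186 without knockout 1 and control 5 together, and 11 to 268 with 1 array left out. Genes called in the 5 lists around droplets were 2, and 1 with a shared median, 0 with the replicate block, 0 with the distal covariate, 8 without knockout 1 and control 5 together, and 0 to 8 with 1 array left out. Without knockout 1 the 8 were Cd36, Ces1d, Dgat2, Lipa, Mia2, Nsdhl, Pdk4 and Sqle. With the mean of probe sets, Plin2 minus Plin3 was -0.72 (adjusted p = 0.0635, exact permutation, since the other pair enters the adjustment) and Fitm1 minus Fitm2 was 0.39. With 1 array left out they ran from -0.95 to -0.57 and from 0.28 to 0.51. Plin3 turned to 0.00577 with quantile normalization, to 0.0125 without knockout 1 and control 5 together, and ran from -0.0958 to 0.0283 with 1 array left out. The 8 other members and Pcyt1a kept their direction in every alternative run, and Pcyt1a passed in all 21. Where not stated, the cause was not tested. Same-numbered arrays of the 2 groups had correlations of deviations from -0.13 to 0.12, and no knockout was most like its own number. This cannot show that the samples were not paired. Under the replicate block Plin2 (SE 0.22, limma adjusted p = 0.226) and Cidec (SE 0.13, limma adjusted p = 0.0700) did not pass either. In the main fit the SE was 0.24 for Plin2 and 0.26 for Cidec. The dimmest 30% filter left no value for Cidea.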
